A study of Mus musculus with 6 samples.

Results

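The genes described here encode the receptors for the cytokines IL-12, IL-18, IL-6 and IL-21 and the signalling proteins that read them. They were taken by symbol from a deposited table of bulk RNA sequencing. All 10 symbols of the list were found once each among 55450 genes, and all 10 were among the 13171 genes with enough counts to test. DN NK1.1+ lymphocytes (3 libraries) were set against CD8 beta+ T cells (3 libraries). Both were sorted from the mammary glands of mice late in pregnancy (E18.5). NK1.1 marks natural killer (NK) cells, with a minority of T cells, and CD8 beta is a chain of the CD8 coreceptor of cytotoxic T cells. The labels call the DN NK1.1+ cells lymphocytes in one field and T cells in another, and they do not say which markers the DN (double negative) cells lack. Strain, age, number of pregnancies, pooling of animals and the origin of each library from its own animal are not stated in the labels. The study asked whether unconventional lymphocytes in this epithelium steer how mammary cells mature.

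IL-12 binds a receptor made of IL-12R beta 1 and IL-12R beta 2, whose kinases TYK2 and JAK2 activate the transcription factor STAT4. IL-18 binds its receptor alpha chain, recruits an accessory chain and signals through the adaptor MyD88. In NK cells and effector T cells IL-12 and IL-18 together drive production of interferon gamma. IL-6 binds IL-6R alpha and then the shared chain gp130, and IL-21 binds its receptor with the common gamma chain. Both of these routes use STAT3 among other factors.

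Of the 10 genes, 3 rose and 3 fell in DN NK1.1+ lymphocytes relative to CD8 beta+ T cells, and 4 did not pass the test. A gene was called at an adjusted p under 0.05 in the quasi-likelihood test of edgeR, adjusted by Benjamini-Hochberg over all 13171 genes tested. The genes that rose were Il12rb2, Il18rap and Stat3, and those that fell were Il6ra, Il6st and Il21r. Of all tested genes, 7.84% were called higher and 5.99% lower. The 2 groups did not overlap in 8 of the 10 genes (5 above and 3 below), and in 30.6% of all tested genes. The median log2 fold change was 0.40 over the 10 genes and −0.0033 over all tested genes. Values below are CPM (counts scaled to library size), log2 fold changes are DN NK1.1+ over CD8 beta+, SE is their standard error, and means have SD over 3 libraries. In sorted bulk samples, fewer cells that express a gene and less RNA per cell cannot be told apart.

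**Figure D1:**
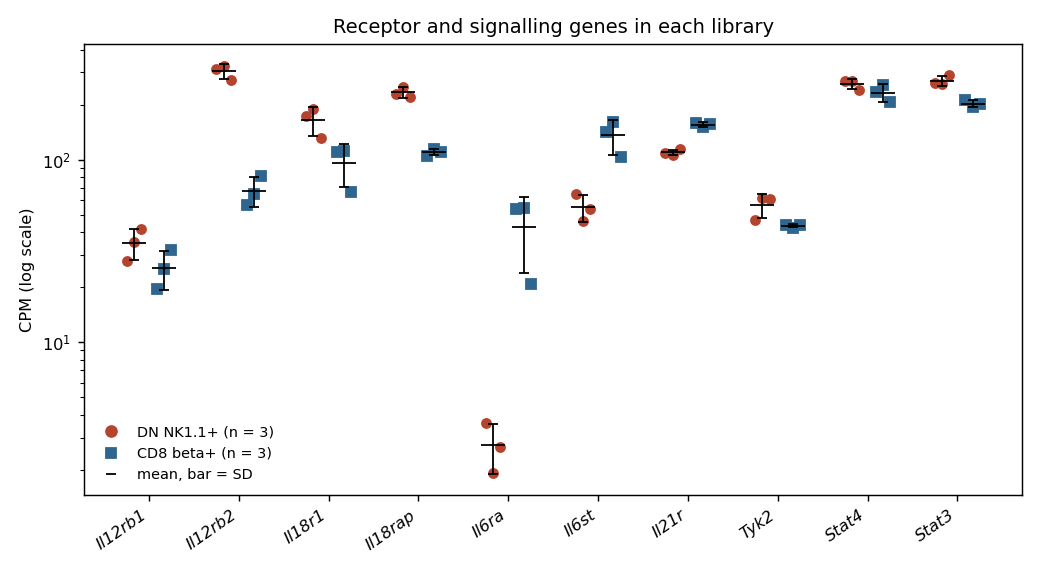
CPM on a log scale for the 10 genes in each library, with DN NK1.1+ lymphocytes as circles and CD8 beta+ T cells as squares; black marks are the mean and SD of 3 libraries. Il12rb2 and Il18rap lie above in DN NK1.1+ lymphocytes and Il6ra, Il6st and Il21r below, with no overlap in these 5 genes, while the groups overlap in Il12rb1 and Stat4.

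**Figure D2:**
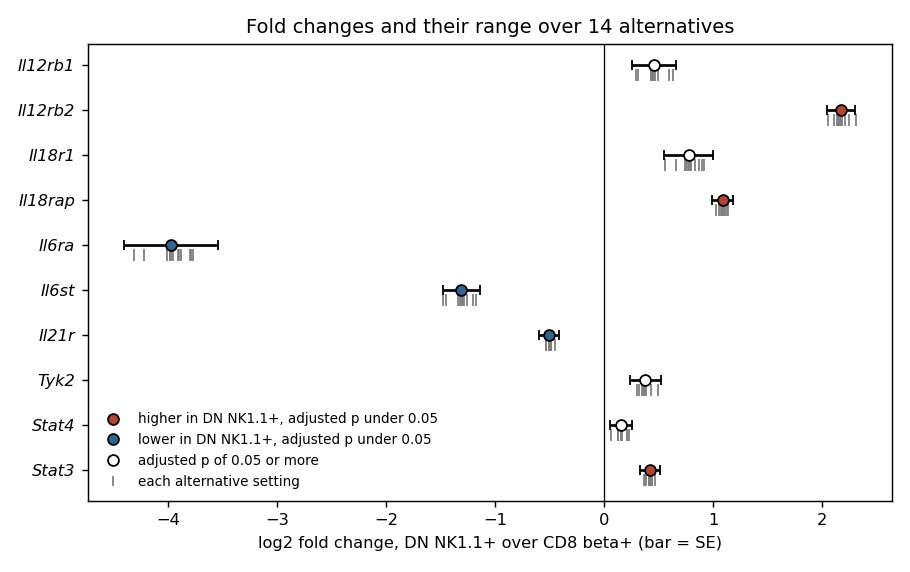
Log2 fold change of DN NK1.1+ lymphocytes over CD8 beta+ T cells for each gene, with SE bars; filled points passed an adjusted p under 0.05 and grey ticks are the values under each of 14 other settings. Il6ra at −3.97 and Il12rb2 at 2.17 are the 2 farthest from 0, and no gene changes sign under a setting.

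The IL-12 receptor differed between the groups in its beta 2 chain. Il12rb2, which encodes the chain that carries the STAT4 docking function, had 312, 327 and 273 CPM in DN NK1.1+ libraries, against 56.7, 64.9 and 80.9 CPM in CD8 beta+ libraries. Every DN NK1.1+ library lay far above every CD8 beta+ library. It rose by 2.17 on the log2 scale, or 4.50-fold (SE 0.129, adjusted p = 1.97e-08), which placed it 470th of 13171 genes by size of change. Il12rb1, for the beta 1 chain that IL-12 shares with IL-23, had 27.8, 35.5 and 41.4 CPM in DN NK1.1+ libraries, against 19.6, 25.0 and 31.8 CPM in CD8 beta+ libraries. These ranges overlap, and Il12rb1 did not pass the test (log2 fold change 0.45, SE 0.201, adjusted p = 0.174). Il12rb2 lies on chromosome 6 from 67291318 to 67376188 and Il12rb1 on chromosome 8 from 70808449 to 70821424, both on build mm10. The exons of Il12rb2 share 1519 bases, or 40% of its exon bases, with exons of Serbp1 on the other strand. Whether counting used strand is not stated in the labels, so reads from those bases cannot be told apart. Serbp1, for an RNA-binding protein, had 610, 582 and 503 CPM in DN NK1.1+ libraries, against 548, 555 and 492 CPM in CD8 beta+ libraries, and was not called (log2 fold change 0.09, adjusted p = 0.671). Markers of NK and other innate lymphoid cells moved with Il12rb2. The 12 listed markers summed to 2815 to 3106 CPM in DN NK1.1+ libraries, with all 12 detected, and to 484 to 552 CPM in CD8 beta+ libraries, with 11 detected and Khdc1a at 0. Their part in the rise of Il12rb2 was not tested.

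The promoters of the 4 genes that were called and changed by more than 2-fold are shown, since these genes carry the contrast between the groups. Each runs 5′ to 3′ along the gene's own strand from 250 bases before to 50 bases after the annotated start, from RefSeq on GRCm38.p6, the assembly of mm10. Capitals mark matches to the STAT motif TTCNNNGAA, which reads the same on either strand, and to the T-box core TCACAC or its reverse complement GTGTGA. STAT factors act downstream of these receptors, and the T-box factors T-bet and Eomes are lineage factors of NK cells and effector T cells. The windows of Il12rb2 (chr6:67376139-67376438, minus strand), Il18rap (chr1:40515112-40515411, plus strand), Il6ra (chr3:89913147-89913446, minus strand) and Il6st (chr13:112463820-112464119, plus strand) read as follows.
Il12rb2: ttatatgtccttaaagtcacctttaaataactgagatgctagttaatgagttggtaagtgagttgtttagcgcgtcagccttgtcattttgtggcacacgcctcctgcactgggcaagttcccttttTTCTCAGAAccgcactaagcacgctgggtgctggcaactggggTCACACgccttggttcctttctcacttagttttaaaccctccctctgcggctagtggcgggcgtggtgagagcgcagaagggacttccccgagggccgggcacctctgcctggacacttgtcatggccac
Il18rap: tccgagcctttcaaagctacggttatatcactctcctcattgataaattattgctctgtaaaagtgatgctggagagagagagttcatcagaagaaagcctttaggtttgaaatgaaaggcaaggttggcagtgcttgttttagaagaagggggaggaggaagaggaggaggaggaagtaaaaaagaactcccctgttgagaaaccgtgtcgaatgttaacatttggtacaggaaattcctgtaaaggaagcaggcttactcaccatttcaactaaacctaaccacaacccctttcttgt
Il6ra: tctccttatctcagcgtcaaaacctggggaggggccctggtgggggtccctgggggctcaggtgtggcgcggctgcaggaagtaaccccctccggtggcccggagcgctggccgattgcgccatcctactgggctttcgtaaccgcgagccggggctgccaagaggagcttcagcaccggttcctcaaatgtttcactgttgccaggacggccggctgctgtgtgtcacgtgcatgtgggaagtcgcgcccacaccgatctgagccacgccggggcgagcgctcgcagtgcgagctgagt
Il6st: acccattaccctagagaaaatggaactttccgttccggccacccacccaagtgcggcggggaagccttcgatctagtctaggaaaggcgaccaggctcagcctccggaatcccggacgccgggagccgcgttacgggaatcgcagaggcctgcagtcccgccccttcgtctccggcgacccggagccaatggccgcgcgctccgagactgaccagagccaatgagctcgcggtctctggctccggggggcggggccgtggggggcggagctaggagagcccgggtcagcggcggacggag

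Of these 4 windows, the one of Il12rb2 held matches. Its STAT match begins 123 bases and its T-box match 80 bases before the start, and the 2 do not overlap. Over 9 of the 10 genes, RefSeq gave 12 promoter windows, of which 2 held a STAT match and 1 a T-box match. The other STAT matches lie in the window of the third listed start of Il18r1, where they begin 219 and 152 bases before that start. Of 32851 promoters in the same table, 8.3% hold the STAT motif and 14.5% the T-box core. A match is a sequence description and says nothing of binding.

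The IL-18 receptor genes were higher in every library of DN NK1.1+ lymphocytes, and Il18rap alone passed the test. Il18rap, for the accessory chain needed for signalling, had 228, 251 and 221 CPM in DN NK1.1+ libraries, against 105, 114 and 110 CPM in CD8 beta+ libraries. The groups lay far apart and each was tight, and Il18rap rose 2.12-fold (log2 fold change 1.09, SE 0.0950, adjusted p = 1.23e-06). Il18r1, for the chain that binds IL-18, had 173, 189 and 131 CPM in DN NK1.1+ libraries, against 109, 112 and 66.4 CPM in CD8 beta+ libraries. The groups did not overlap, but replicate 3 was the lowest of its group in each, and Il18r1 missed the threshold (log2 fold change 0.78, SE 0.224, adjusted p = 0.0660). Without CD8 beta+ replicate 3 it passed, at a smaller log2 fold change of 0.56 (adjusted p = 0.0145). It also passed by DESeq2 (adjusted p = 0.000330), with scaling by library size only (0.0203) and with no filter on low counts (6.55e-09). With replicate number as a block in the fit it passed too (adjusted p = 1.01e-05), although nothing states that the numbers pair libraries. The 2 genes are neighbours on chromosome 1, Il18r1 from 40465552 to 40500854 and Il18rap from 40515362 to 40551705. They sit among other IL-1 receptor family genes there, of which 2 of 4 had enough counts to test. Neither Il1rl2, for the IL-36 receptor (3.60 ± 1.97 CPM in DN NK1.1+ and 4.01 ± 0.428 CPM in CD8 beta+ libraries, adjusted p = 0.891), nor Il1rl1, for the IL-33 receptor ST2 (1.94 ± 1.98 CPM in DN NK1.1+ and 0.361 ± 0.626 CPM in CD8 beta+ libraries, adjusted p = 0.297), passed the test. All CD8 beta+ counts of Il1rl1 lay in replicate 2, and without that library it passed (adjusted p = 0.0458). There the CD8 beta+ group held no count, and the log2 fold change was 7.40, against 2.24 with all libraries, so its size has no meaning. In DN NK1.1+ libraries Il1rl1 had 4.22, 0.922 and 0.683 CPM, so most of its signal lay in replicate 1. Il1r1 and Il1r2 averaged under 1 CPM in either group.

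The IL-6 receptor showed the largest difference of the 10 genes. Il6ra, for the chain that binds IL-6, had 3.62, 1.93 and 2.65 CPM in DN NK1.1+ libraries, against 53.7, 54.4 and 20.8 CPM in CD8 beta+ libraries. Behind these values stood 42, 23 and 35 counts in DN NK1.1+ libraries and 413, 753 and 202 counts in CD8 beta+ libraries. The groups did not overlap, although CD8 beta+ replicate 3 lay well under the other CD8 beta+ libraries. Il6ra fell by 3.97 on the log2 scale, 15.7-fold (SE 0.428, adjusted p = 0.000351), 114th of 13171 genes by size of change. Il6st, for gp130, which also serves receptors of other cytokines of the IL-6 family, had 64.8, 45.8 and 53.6 CPM in DN NK1.1+ libraries, against 142, 161 and 104 CPM in CD8 beta+ libraries. Il6st fell 2.48-fold (log2 fold change −1.31, SE 0.171, adjusted p = 0.000281), again with CD8 beta+ replicate 3 the lowest of its group. Without that library the log2 fold changes were −4.31 for Il6ra and −1.48 for Il6st, so neither fall rests on it. Il6ra lies on chromosome 3 from 89864059 to 89913196 and Il6st on chromosome 13 from 112464070 to 112510086.

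Markers of naive and recirculating T cells moved with the IL-6 receptor genes. The 8 listed markers summed to 762, 752 and 659 CPM in DN NK1.1+ libraries, against 1817, 1734 and 800 CPM in CD8 beta+ libraries. All 8 had counts in each group, and the CD8 beta+ library with the lowest sum was the one with the lowest Il6ra, Il6st and Il18r1. Among them Ccr7, for a lymph node homing receptor, had 4.22, 4.86 and 3.64 CPM in DN NK1.1+ libraries, against 91.6, 93.0 and 25.9 CPM in CD8 beta+ libraries. Against 5.99% of all tested genes, 6 of the 8 markers fell. Ccr7 was one of them (adjusted p = 0.0153), but it lost its call by limma-voom (adjusted p = 0.163) and without any one DN NK1.1+ library (0.0900 to 0.0915). The groups did not overlap in 7, against 30.6% of all tested genes, and overlapped in 1, which did not follow Il6ra. Myeloid cells can also express Il6ra, and the 15 myeloid markers summed to 390 to 487 CPM in DN NK1.1+ libraries and 194 to 298 CPM in CD8 beta+ libraries. Without Itgax, for CD11c, which NK cells also express, the other 14 summed to 110 to 229 CPM in DN NK1.1+ libraries and 91.5 to 168 CPM in CD8 beta+ libraries, and these ranges overlap. Of the 15, Itgax and Csf1r were called higher and 0 lower. Csf1r had 28.3 ± 9.20 CPM in DN NK1.1+ and 15.3 ± 3.78 CPM in CD8 beta+ libraries (adjusted p = 0.0260). Ly6g was at 0 in the CD8 beta+ group. The part of naive T cells and of myeloid cells in the Il6ra and Il6st differences was not tested.

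**Figure D3:**
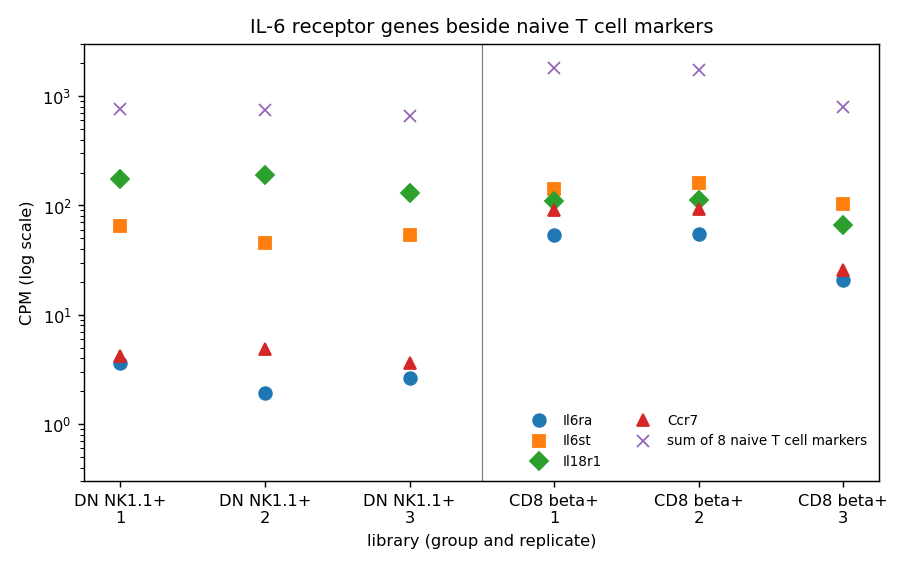
CPM on a log scale in each of 6 libraries for Il6ra, Il6st and Il18r1, for the naive T cell marker Ccr7, and for the sum of all 8 naive T cell markers. CD8 beta+ replicate 3 is the lowest CD8 beta+ library in every one of these series, and Il6ra and Ccr7 stay under 5 CPM in all DN NK1.1+ libraries.

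Il21r, for the private chain of the IL-21 receptor, fell by a small but steady amount. It had 109, 106 and 114 CPM in DN NK1.1+ libraries, against 159, 151 and 156 CPM in CD8 beta+ libraries, with narrow ranges that did not meet. It fell 1.42-fold (log2 fold change −0.50, SE 0.0931, adjusted p = 0.00156). Il2rg, for the common gamma chain that pairs with it, was abundant in both groups at 716 ± 42.8 CPM in DN NK1.1+ and 740 ± 18.2 CPM in CD8 beta+ libraries and was not called (log2 fold change −0.05, adjusted p = 0.816). Il21r lies on chromosome 7 from 125603429 to 125633570.

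The signalling genes changed less than the receptors. Stat3, for the factor downstream of IL-6 and IL-21, had 261, 260 and 290 CPM in DN NK1.1+ libraries, against 211, 193 and 203 CPM in CD8 beta+ libraries. It rose 1.34-fold (log2 fold change 0.42, SE 0.0925, adjusted p = 0.00619), and without CD8 beta+ replicate 2 it lost its call (log2 fold change 0.38, adjusted p = 0.0522). The direction of Stat3 was opposite to that of Il6ra, Il6st and Il21r, the receptor genes that feed it. Stat4, for the factor downstream of IL-12, had 269, 268 and 242 CPM in DN NK1.1+ libraries, against 236, 256 and 206 CPM in CD8 beta+ libraries. These ranges overlap and Stat4 was not called (log2 fold change 0.16, SE 0.102, adjusted p = 0.383). Tyk2, for a kinase of the IL-12 receptor beta 1 chain and of gp130, had 46.5, 61.8 and 60.7 CPM in DN NK1.1+ libraries, against 43.7, 42.4 and 44.1 CPM in CD8 beta+ libraries. Its groups did not overlap, with DN NK1.1+ replicate 1 close to the CD8 beta+ values, and it missed the threshold (log2 fold change 0.38, SE 0.139, adjusted p = 0.0935). Tyk2 passed without DN NK1.1+ replicate 1 (log2 fold change 0.50, adjusted p = 0.0372). Stat4 lies on chromosome 1 from 51987148 to 52107189, Tyk2 on chromosome 9 from 21104068 to 21131243 and Stat3 on chromosome 11 from 100885098 to 100939540. Stat3 shares 72 exon bases with Stat5a on the other strand. Stat4 shares 1033 exon bases with Gm28177, a noncoding gene on its own strand with 0 counts in DN NK1.1+ libraries and 24, 0 and 4 in CD8 beta+ libraries. Tyk2 and Il6ra overlap antisense genes with at most 9 counts in a library.

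Per length, Il12rb2 was the most abundant of the 10 genes in DN NK1.1+ lymphocytes and in the middle of the order in CD8 beta+ T cells. Levels here are CPM per kb of annotated exon. For Il12rb2, 40% of exon bases are shared with Serbp1, so its level depends on how reads there were counted. In DN NK1.1+ libraries Il12rb2 averaged 80.1 ± 7.29 CPM per kb and Stat4 67.0 ± 3.95 CPM per kb. Il18rap (34.6 ± 2.32), Il18r1 (34.1 ± 6.25) and Il21r (33.0 ± 1.16 CPM per kb) followed, with values that overlapped from one to the next, and then Stat3 at 28.3 ± 1.78 CPM per kb. Il12rb1 (8.51 ± 1.66) and Tyk2 (8.21 ± 1.25 CPM per kb) overlapped each other, Il6st had 4.93 ± 0.860 CPM per kb, and Il6ra came last at 0.316 ± 0.0983 CPM per kb. In CD8 beta+ libraries Stat4 led at 60.0 ± 6.53 and Il21r was next at 46.7 ± 1.32 CPM per kb. Stat3 (21.2 ± 0.958), Il18r1 (19.9 ± 5.28), Il12rb2 (17.8 ± 3.25) and Il18rap (16.3 ± 0.654 CPM per kb) overlapped from one to the next. Il6st had 12.2 ± 2.62 CPM per kb in CD8 beta+ libraries, and Tyk2 (6.32 ± 0.127), Il12rb1 (6.21 ± 1.49) and Il6ra (4.97 ± 2.22 CPM per kb) overlapped at the low end. With the longest transcript in place of all exons, Stat3 stood 4th and Il18r1 6th in DN NK1.1+ lymphocytes. The order in CD8 beta+ T cells was the same with either length.

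**Figure D4:**
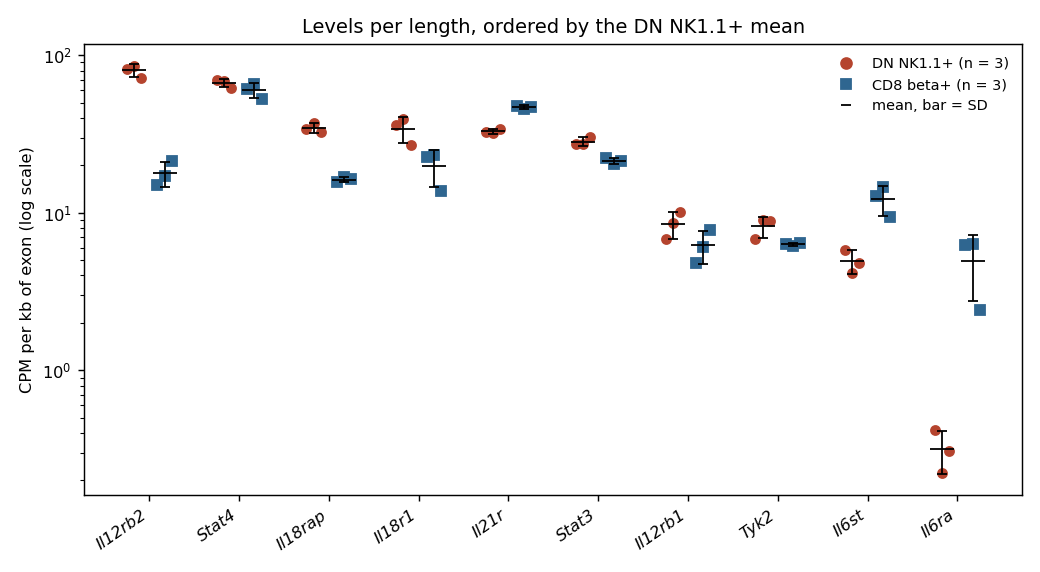
Level per length (CPM per kb of exon, log scale) of the 10 genes, ordered by their mean in DN NK1.1+ lymphocytes, with DN NK1.1+ libraries as circles, CD8 beta+ libraries as squares, and mean and SD of 3 libraries in black. Il12rb2 stands first in DN NK1.1+ lymphocytes at 80.1 CPM per kb and Il6ra last at 0.316 CPM per kb.

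Partner genes within a library were also compared, since such a ratio does not depend on scaling between libraries. The ratio of Il12rb2 to Il12rb1, per kb of exon, was 12.1, 9.94 and 7.13 in DN NK1.1+ libraries, against 3.12, 2.81 and 2.75 in CD8 beta+ libraries. Its size also depends on how reads in the exon bases shared with Serbp1 were counted. The ratio of Il6ra to Il6st was 0.0717, 0.0540 and 0.0636 in DN NK1.1+ libraries, against 0.485, 0.434 and 0.257 in CD8 beta+ libraries. In these 2 pairs the groups did not overlap, and the differences of mean log2 ratios were 1.72 and −2.59. The ratio of Il18r1 to Il18rap was 1.06, 1.06 and 0.829 in DN NK1.1+ libraries, against 1.46, 1.37 and 0.843 in CD8 beta+ libraries, and these overlap. The ratio of Stat4 to Stat3 was 2.53, 2.54 and 2.05 in DN NK1.1+ libraries, against 2.74, 3.26 and 2.497 in CD8 beta+ libraries, and these overlap too. In a two-sided exact permutation test the first 2 pairs had p = 0.1 (0.2 adjusted over the 4 ratios), the smallest p that 3 libraries against 3 allow, and the other pairs had p = 0.3.

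**Figure D5:**
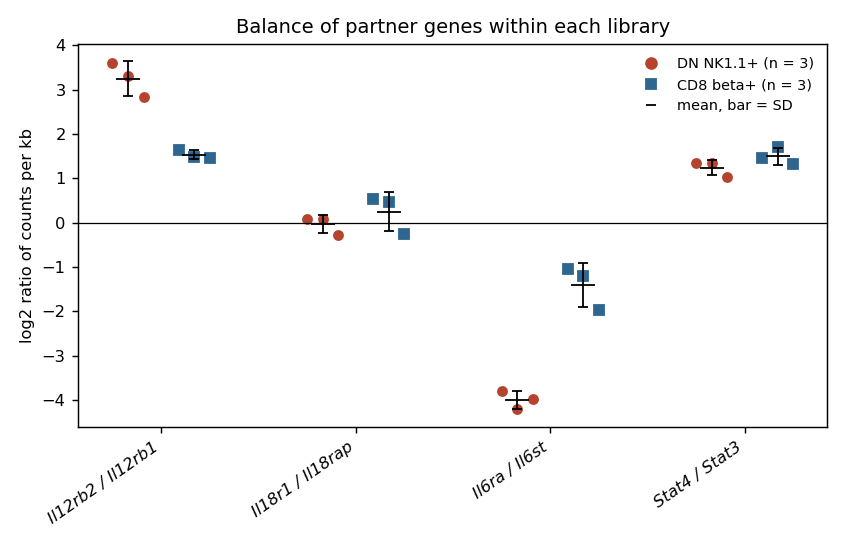
Log2 ratio of counts per kb of exon for 4 pairs of partner genes in each library, DN NK1.1+ as circles left of CD8 beta+ as squares, with mean and SD of 3 libraries in black. The groups lie apart for Il12rb2 over Il12rb1 (means 3.25 and 1.53) and for Il6ra over Il6st (means −4.00 and −1.40), and overlap for the other pairs.

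The genes with the most similar pattern over the 6 libraries were sought for Il12rb2, Il6ra and Il18r1 among 8689 protein-coding genes. Likeness was the distance between log2 CPM values centred on each gene's mean. Nearest to Il12rb2 were Cers6, for a ceramide synthase (distance 0.190, 122 ± 13.3 CPM in DN NK1.1+ and 26.7 ± 4.31 CPM in CD8 beta+ libraries), Xcl1, for a chemokine that attracts dendritic cells (0.219), and Cd200r4 (0.237). Nearest to Il6ra were Ccr7 (0.865), Als2cl (1.02) and Cd6, for an inhibitory surface receptor on T cells (1.0998). Values were not scaled to each gene's spread, so distances around Il6ra and around Il12rb2 cannot be compared in size. Nearest to Il18r1 were Ralgps1 (0.201), Yipf6 (0.327) and Spred1, for an inhibitor of MAP kinase signalling (0.348).

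Other genes of the same pathways were counted from 6 further lists. Beside the counts of each list stand the shares of all tested genes, 7.84% called higher and 5.99% lower. The median log2 fold change of all tested genes was −0.0033. Transcripts for the ligands were scarce in both groups: of 14 listed, 2 had enough counts to test. Clcf1, for an IL-6 family cytokine, rose to 40.1, 32.0 and 34.97 CPM in DN NK1.1+ libraries, against 18.46, 23.6 and 22.3 CPM in CD8 beta+ libraries (log2 fold change 0.73, adjusted p = 0.00883), and was not called without DN NK1.1+ replicate 1 or CD8 beta+ replicate 1. Osm, for oncostatin M, averaged 5.60 CPM in DN NK1.1+ and 3.08 CPM in CD8 beta+ libraries and was not called (adjusted p = 0.204). Il12a, Il23a and Il31 had no count in any library. Of 10 tested other chains and antagonists, 0 rose and 1 fell (median log2 fold change −0.10). At an unadjusted p under 0.05, 0 were higher, and DESeq2 and limma-voom called 0 and 0 higher. The gene that fell was Il27ra, for the IL-27 receptor, which also signals with gp130. It had 42.5, 38.0 and 43.7 CPM in DN NK1.1+ libraries, against 71.1, 60.1 and 54.0 CPM in CD8 beta+ libraries (log2 fold change −0.57, adjusted p = 0.0101), and its call ended without DN NK1.1+ replicate 2 or CD8 beta+ replicate 1.

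Of 16 tested kinases and adaptors, 2 rose and 1 fell (median −0.02). Irak2, for a kinase that acts after MyD88 in IL-1 and IL-18 signalling, had 70.7, 84.7 and 86.7 CPM in DN NK1.1+ libraries, against 32.8, 41.5 and 39.3 CPM in CD8 beta+ libraries (log2 fold change 1.09, adjusted p = 4.01e-05). Tab2, for an adaptor of the kinase TAK1, also rose (log2 fold change 0.44, adjusted p = 0.0107). Jak1, the most abundant gene of the list that was not called, averaged 1531 CPM in DN NK1.1+ and 1746 CPM in CD8 beta+ libraries (adjusted p = 0.251). Jak2, the kinase partner of TYK2 at the IL-12 receptor, averaged 222 CPM in DN NK1.1+ and 224 CPM in CD8 beta+ libraries (log2 fold change −0.01, adjusted p = 0.956). Irak2 kept its call without any one library, while Tab2 was not called without DN NK1.1+ replicate 1 or 2 or CD8 beta+ replicate 1 or 2.

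Of 16 tested brakes on cytokine receptor signalling, 4 rose and 1 fell (median 0.19). Socs2, for a feedback inhibitor, had 39.9, 41.0 and 34.3 CPM in DN NK1.1+ libraries, against 13.1, 11.3 and 26.6 CPM in CD8 beta+ libraries (log2 fold change 1.18, adjusted p = 0.0178). Socs5 rose too (log2 fold change 0.90, adjusted p = 0.00398), as did Cish (0.38, adjusted p = 0.0362) and the phosphatase gene Ptpn1 (0.48, adjusted p = 0.00772), while Ptpn6, for the phosphatase SHP-1, fell (−0.35, adjusted p = 0.0355). Socs3, the classic STAT3-induced brake on gp130, had 46.1, 50.6 and 51.8 CPM in DN NK1.1+ libraries, against 35.5, 39.7 and 51.7 CPM in CD8 beta+ libraries, and was not called (adjusted p = 0.404). Pias1 was the most abundant gene of the list not called, at 99.3 CPM in DN NK1.1+ and 118 CPM in CD8 beta+ libraries (adjusted p = 0.164). The count of rising brakes was 1 without CD8 beta+ replicate 1, where Socs5 alone was called, and 2 without DN NK1.1+ replicate 1. Socs2 also lost its call without DN NK1.1+ replicate 2, and Cish without DN NK1.1+ replicate 3, without CD8 beta+ replicate 2 or with upper quartile scaling. The fall of Ptpn6 was not called without DN NK1.1+ replicate 1 or 3, without CD8 beta+ replicate 1 or 2, or with scaling by library size only.

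Of 15 tested textbook targets of IL-12, IL-18 and STAT4, 5 rose and 0 fell (median 0.53), against 7.84% and 5.99% of all tested genes. At an unadjusted p under 0.05, 1 was lower, and DESeq2 and limma-voom called 0 and 0 lower. The 5 were Ccl3 and Gzmb, with log2 fold changes of 1.67 and 1.52, and Prf1, Il2ra and Furin, with 1.35, 0.96 and 0.77. Il2ra was not called without DN NK1.1+ replicate 2 or CD8 beta+ replicate 1 or 2. Ifng, the hallmark product of IL-12 and IL-18 stimulation, was not among them: it had 48.4, 67.0 and 50.2 CPM in DN NK1.1+ libraries, against 65.0, 70.9 and 94.3 CPM in CD8 beta+ libraries (log2 fold change −0.47, adjusted p = 0.0710). It was called lower without DN NK1.1+ replicate 2 (log2 fold change −0.64, adjusted p = 0.0256), with upper quartile scaling (adjusted p = 0.0475) and with no filter (0.00538). Tbx21, for T-bet, had 199, 223 and 269 CPM in DN NK1.1+ libraries, against 141, 137 and 202 CPM in CD8 beta+ libraries (log2 fold change 0.53, adjusted p = 0.0572). Tbx21 was called higher without CD8 beta+ replicate 3 (0.72, adjusted p = 0.00116), without DN NK1.1+ replicate 1 (0.62, adjusted p = 0.0484), with no filter (adjusted p = 5.49e-05), by DESeq2 (0.00708) and by limma-voom (0.0335). Of 11 tested textbook targets of IL-6, IL-21 and STAT3, 4 rose and 1 fell (median 0.27). Maf and Fos rose most, with log2 fold changes of 1.20 and 1.05 (adjusted p = 0.00526 and 0.000756), and Bcl6 and Pim1 rose by 0.72 and 0.56. Prdm1, for the factor Blimp-1, had 51.7, 53.7 and 52.9 CPM in DN NK1.1+ libraries, against 62.6, 68.6 and 98.5 CPM in CD8 beta+ libraries (log2 fold change −0.54, adjusted p = 0.0282), and lost its call without any one DN NK1.1+ library, without CD8 beta+ replicate 3, or with scaling by library size only. Junb, the most abundant gene of this list not called, averaged 371 CPM in DN NK1.1+ and 271 CPM in CD8 beta+ libraries (adjusted p = 0.163), and was called higher without DN NK1.1+ replicate 1 (adjusted p = 0.0230), by DESeq2 (0.0277) and with no filter (0.000645). Many of these targets respond to other signals as well, so their counts are no measure of these pathways.

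Library totals ranged from 11440721 to 12820875 counts in DN NK1.1+ and from 7961360 to 14367299 counts in CD8 beta+ libraries. The sort markers went with the labels: Cd8b1 averaged 2.57 ± 1.58 CPM in DN NK1.1+ and 949 ± 57.8 CPM in CD8 beta+ libraries, and Klrb1c, for NK1.1, averaged 639 ± 20.8 CPM in DN NK1.1+ and 37.1 ± 5.68 CPM in CD8 beta+ libraries. Cd8a, for the other CD8 chain, averaged 162 ± 11.6 CPM in DN NK1.1+ and 911 ± 85.8 CPM in CD8 beta+ libraries. Trdc, a T cell receptor constant gene, averaged 88.3 ± 11.2 CPM in DN NK1.1+ and 7.04 ± 1.32 CPM in CD8 beta+ libraries. Summed markers of B cells (30.2 to 48.4 CPM in DN NK1.1+ and 28.7 to 76.1 CPM in CD8 beta+ libraries) overlapped between the groups, as did those of luminal epithelium, basal epithelium, and fibroblasts with adipocytes. Single genes of these lists could still differ. Of 12 luminal markers 11 overlapped, but Epcam was called higher (32.0 ± 1.04 CPM in DN NK1.1+ and 6.05 ± 1.79 CPM in CD8 beta+ libraries, adjusted p = 4.06e-06). Of 8 B cell markers, Cd79b alone was called, and it was lower in DN NK1.1+ libraries (adjusted p = 0.0180). Endothelial markers summed to 48.3 to 81.2 CPM in DN NK1.1+ and 34.8 to 42.0 CPM in CD8 beta+ libraries. Without Pecam1, which leukocytes also express, the other 5 endothelial markers summed to 0.335 to 16.0 CPM in DN NK1.1+ and 0 to 19.4 CPM in CD8 beta+ libraries, which overlap. Markers of CD4 and regulatory T cells summed to 213 to 264 CPM in DN NK1.1+ and 61.6 to 92.9 CPM in CD8 beta+ libraries. That list of CD4 and regulatory T cell markers holds Ikzf2 and Il2ra, which are not specific to those cells; without Ikzf2 it summed to 27.5 to 35.8 CPM in DN NK1.1+ and 24.6 to 54.4 CPM in CD8 beta+ libraries, which overlap. The part of these cells in the results was not tested.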

How the data were processed

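Bulk RNA was sequenced from 3 DN NK1.1+ and 3 CD8 beta+ samples. RNA came from an RNeasy Micro kit and libraries from a Tecan Solo mouse kit, per the labels' protocols. The deposited table holds expected counts (estimated reads per gene), not scaled between libraries, a unit inferred from the values. Build mm10 and Cell Ranger 7.1.0, a single-cell tool, are named in the submitters' processing notes. The bulk aligner, counting tool and use of strand are not stated. All 55450 gene IDs matched GENCODE M21, which gave coordinates and exon lengths.

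Expected counts were rounded. Libraries held 7961360 to 14367299 counts, so 1 count was worth 0.0722 to 0.13 CPM. Between libraries of a group, chi-square per degree of freedom was 9.07 to 23.5, so none was a copy. The 13171 genes past a filter (minimum count 10, minimum total 15) were fitted in edgeR 4.0.16 (R 4.3.3; TMM, robust quasi-likelihood, group alone), two-sided, with Benjamini-Hochberg adjustment over all of them. SE comes from the F statistic. Nothing states that replicates are separate animals, so a p-value covers the spread between these libraries only, possibly technical spread. The fit was tested on simulated counts. It recovered 31.3% of genes changed 1.5-fold, 61.2% of those changed 2-fold and 72.7% of those changed 4-fold, and 1.79% of 112 calls were false. Changes of each of these sizes can therefore go uncalled, the smaller ones more often.

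Alternatives were other scalings and filters, DESeq2 1.42.0, limma-voom (limma 3.58.1), a replicate block and leaving out each library. The members, lists and tests were chosen with earlier results of these data known. The rule for named genes took the 10 members; from each other list the 2 called genes with the largest change at 5 CPM or more and the most abundant gene not called; the sort genes; and the 3 nearest genes to Il12rb2, Il6ra and Il18r1 (log2 CPM, prior count 2, mean of at least 5 CPM, no predicted genes). Further list genes, Cd8a and Trdc were named with their values in view. Some list genes enter the counts and sums but are not reported singly here. Protein sequences were not used here.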

Additional observations from a re-analysis of the deposited data

How the results depend on the processing

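Of the 10 genes, Il12rb2, Il18rap, Il6ra, Il6st and Il21r kept their calls, and Il12rb1 and Stat4 stayed without one, under all 14 alternatives. By limma-voom, Il6ra was only just under the threshold (adjusted p = 0.0474). No log2 fold change of the 10 changed sign. Il18r1 passed with library size scaling (0.83), no filter (0.77), DESeq2 (0.78) and the replicate block (0.80). With a library left out, log2 fold changes ran from 0.56 to 0.92 for Il18r1, 0.30 to 0.50 for Tyk2 and 0.36 to 0.44 for Stat3, and all genes called ran from 681 to 1093 higher and 499 to 883 lower. Counts per list with a library left out ran from 0 to 1 for ligands called higher, other chains called higher and lower, brakes called lower, IL-12 targets called lower and IL-6 targets called lower, from 1 to 2 for kinases called higher and IL-1 family cluster genes called higher, and from 1 to 5 for brakes called higher. Library size scaling gave 0 brakes and 0 IL-6 targets called lower. Upper quartile scaling, no filter and the replicate block each gave 1 IL-12 target called lower, which was Ifng. Library size scaling, no filter, DESeq2 and the replicate block each gave 2 IL-1 family cluster genes called higher. Il1rl2 turned positive without DN NK1.1+ replicate 2 (−0.67 to 0.14 with a library left out). Jak2 turned positive with library size scaling (0.0316) and without DN NK1.1+ or CD8 beta+ replicate 3 (−0.0633 to 0.0644 with a library left out). Causes were not tested. Same-numbered libraries are not said to be related, and their deviations correlated at −0.05, 0.19 and 0.26. Libraries with different numbers correlated at −0.25 to 0.11. The planned rule asked all 3 same-number correlations to pass a limit, and −0.05 did not, so numbers were not taken as pairs. A shared origin of some same-numbered libraries stays possible. With the replicate block 1137 genes were higher and 945 lower, and Il18r1 (adjusted p = 1.01e-05), Tbx21 (0.000586), Junb (0.00369) and Ifng (0.0324) were called. Marker sums without Pecam1, Itgax or Ikzf2 were added after seeing the data. With 3 libraries a group, the SE of up to 0.224 among the 4 genes not called limits what their tests can show.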

Other observations

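Lifr and Osmr, receptor chains that pair with gp130 for the cytokines LIF and oncostatin M, were low and were highest in replicate 3 of each group. Lifr had 8.53, 1.68 and 14.3 CPM in DN NK1.1+ replicates 1, 2 and 3, against 3.64, 3.90 and 15.03 CPM in CD8 beta+ replicates 1, 2 and 3. Osmr had 1.47, 0 and 3.19 CPM in DN NK1.1+ replicates 1, 2 and 3, against 0, 0 and 3.29 CPM in CD8 beta+ replicates 1, 2 and 3. In the same libraries, basal and myoepithelial markers summed to 9.14, 19.4 and 179 CPM in DN NK1.1+ and to 16.0, 12.6 and 133 CPM in CD8 beta+ libraries. Fibroblast and adipocyte markers summed to 76.2, 4.36 and 172 CPM in DN NK1.1+ and to 39.8, 11.3 and 188 CPM in CD8 beta+ libraries, with Adipoq and Plin1 at 0 in every library. The part of these cells in the Lifr and Osmr values was not tested. Il6st, in contrast, had its highest value in replicate 1 of the DN NK1.1+ group (64.8 CPM) and replicate 2 of the CD8 beta+ group (161 CPM).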
